A study of Homo sapiens with 8 samples.

Results

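Of the genes that other work has reported as targets of miR-143, 10 were examined here on the arrays of a miR-143 overexpression experiment: FNDC3B, MACC1, CD44, LIMK1, ITGA6, ASAP3, FOSL2, MYO6, PTGS2 and IGFBP5. They were taken by name, with every probe set (a group of short probes that read 1 transcript) annotated to 1 of these genes alone. This gave 45 probe sets of the 54675 on the array and 10 genes of 19752. CD44 had 13 of these probe sets, FNDC3B and IGFBP5 had 6 each, FOSL2 had 5, LIMK1, MACC1 and MYO6 had 3 each, and ASAP3, ITGA6 and PTGS2 had 2 each. The questions were which of these genes DLD-1 cells express above the background of the array, and which had less mRNA 24 h after transfection.

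DLD-1 is an established line of human colorectal adenocarcinoma cells. Both groups were DLD-1 cells in culture, treated with the transfection reagent Lipofectamine 2000. The 4 miR-143 samples received 50 nM of a duplex that mimics mature miR-143, and the 4 mock samples were mock transfected. The transfection was transient, and RNA was taken at 24 h. The mock cells received no duplex, and a scrambled control duplex is not among the samples analysed here. The labels number both groups from 1 to 4, and the study describes the samples as biological replicates.

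MicroRNAs guide the RNA-induced silencing complex to messenger RNAs, mostly through sites in the 3′UTR that pair with the seed, bases 2 to 8 of the mature microRNA. The mRNA is then translated less and often degraded, so that an array can see the part of the repression that lowers mRNA, and not the part that lowers protein alone. In the normal gut wall miR-143 is found mainly in smooth muscle and other stromal cells, and it is low in many colon tumours. The 2 mature arms of human miR-143 are shown because the seed is the part that mostly pairs with a target. Capitals mark the seed (RefSeq, GRCh38.p14, plus strand, 5′ to 3′; chr5:149428978-149428998 for the 3p arm and chr5:149428944-149428965 for the 5p arm).
hsa-miR-143-3p: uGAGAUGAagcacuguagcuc
hsa-miR-143-5p: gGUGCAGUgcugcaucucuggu
The 3p arm is the one usually meant by miR-143. Its seed pairs with TCATCTC in the DNA letters of a target. The presence of this site in the 10 genes was not checked here.

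The values are log2 expression after RMA, a method that corrects, scales and summarizes the probes of an array. The medians of the 8 arrays lay between 7.15 and 7.24. Both arrays numbered 4 stood apart, with interquartile ranges of 1.44 (miR-143) and 1.44 (mock), against 1.17 to 1.28 on the other 6 arrays. Of 14 markers of colorectal epithelium 8 lay above the background limit described below, among them EPCAM, CDH1, KRT20 and CDX2, whereas VIL1, CDX1, CEACAM5, CEACAM6, GPA33 and LGALS4 did not. Of 10 markers of fibroblasts and smooth muscle only COL1A1 did (8.14 in miR-143 cells and 8.15 in mock cells), and 0 of 4 leukocyte and 0 of 4 endothelial markers did. The leukocyte marker CD3E is also among the genes that set this limit.

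For the first question, a background limit was set from 46 genes that are restricted to other tissues. Their 83 probe sets had a median of 7.07 in mock cells, and the limit was their 95th percentile, 7.93. Over the whole array 27.7% of probe sets and 41.8% of genes lay above it. Each gene was represented by its brightest probe set. By this rule 6 of the 10 genes were above background (MYO6, ITGA6, FNDC3B, MACC1, CD44 and FOSL2), and 4 were not (LIMK1, ASAP3, PTGS2 and IGFBP5). The same 6 genes were above the limit of 7.92 on the miR-143 arrays, and each of them exceeded the limit of its own array on all 8 arrays.

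The upper end of the tissue-restricted list was set by few probe sets, the highest being 3 of MBP at 8.44, 8.83 and 8.86. MBP encodes a myelin protein. Without the 9 MBP probe sets the limit was 7.66, and the same 6 genes were above it. At the 90th percentile, 7.47, LIMK1 and ASAP3 were also above, which makes 8 genes. PTGS2 and IGFBP5 lay below 7.20, the median of all probe sets of the array in mock cells. A probe set that is not above background gives little information on a decrease, since there is little signal to lose.

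**Figure D1:**
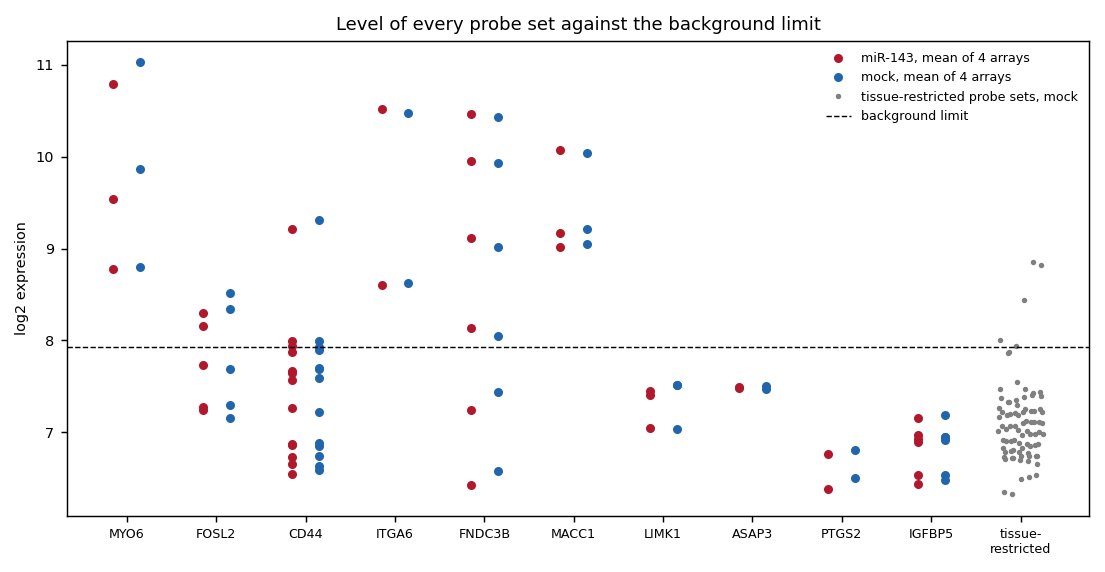
Mean log2 expression of each of the 45 probe sets (y axis) for the 10 genes (x axis), in miR-143 cells (red, left) and mock cells (blue, right), with the 83 tissue-restricted probe sets in grey and the background limit of 7.93 as a dashed line. All probe sets of MYO6, ITGA6 and MACC1 lie above the line, and none of LIMK1, ASAP3, PTGS2 and IGFBP5 does.

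For the second question, the 8 arrays were compared with limma, a linear model that shares information on the spread across all genes, with Benjamini-Hochberg adjustment across the 19752 genes. Without pairs 0 of the 10 genes passed an adjusted p of 0.05, and 0% of all genes did, with a lowest adjusted p of 0.126 (limma). The count at an unadjusted p under 0.05 was 1 of the 10, MYO6, beside 2.41% of all genes. When arrays with the same replicate number were treated as pairs, 0 of the 10 genes passed again, where 0.79% of all genes did. The median log2 fold change (miR-143 over mock) of the 10 genes was −0.04, beside −0.01 for all genes. It was negative for 7 of the 10 genes and for 55.6% of all genes. For the 6 genes above background the median was −0.03, beside −0.04 for all genes above background.

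The values nearest to a decrease were those of MYO6 and FOSL2. These were the 2 genes of the 10 with a log2 fold change beyond a 1.1-fold decrease, which 5.4% of all genes had, and 0 of the 10 went beyond a 1.1-fold increase. With pairs they were also the 2 with an unadjusted p under 0.05, a mark that 6.92% of all genes reached on the lower side. For 0 of the 10 genes did all miR-143 arrays lie below all mock arrays, where 1.24% of all genes did so.

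**Figure D2:**
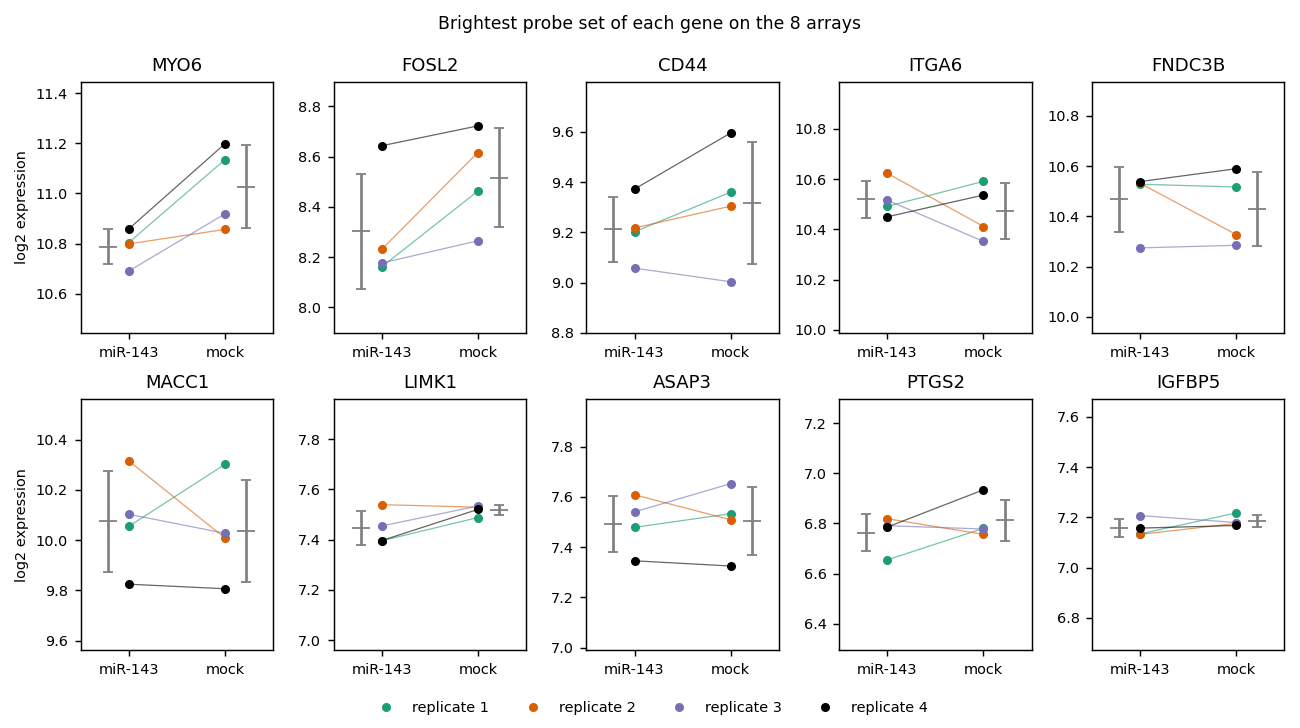
Log2 expression (y axis, the same span in each panel) of the brightest probe set of the 10 genes in miR-143 and mock cells (x axis). Points are single arrays coloured by replicate number, lines join arrays of the same number, and grey bars are mean ± SD (n = 4). MYO6 and FOSL2 are lower with miR-143 in 4 of 4 numbers, and the points of the other 8 genes overlap with lines in both directions.

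MYO6 encodes myosin VI, an actin motor that moves toward the minus end of the filament and serves endocytosis and cell migration. Its brightest probe set, 203216_s_at, read 10.80, 10.80, 10.69 and 10.86 in miR-143 cells of replicates 1 to 4, and 11.14, 10.86, 10.92 and 11.20 in mock cells. The groups overlapped in a single place, where the highest miR-143 array (replicate 4) just exceeded the lowest mock array (replicate 2). The means were 10.79 ± 0.07 with miR-143 and 11.03 ± 0.16 with mock (SD, n = 4 each).

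The log2 fold change of MYO6 was −0.24 (SE 0.0846, 95% interval −0.43 to −0.05), a change of −15.2% with an interval of −25.7% to −3.35%. The unadjusted p of limma was 0.0188 and the adjusted p was 1. The exact permutation test of the 8 arrays gave a two-sided p of 0.0571, where 4 against 4 arrays can give 0.0286 at the least. All 4 numbers had the lower value with miR-143, with differences of −0.33, −0.06, −0.23 and −0.34. With pairs the unadjusted p was 0.00167 and the adjusted p was 0.117 (limma). Of all genes 1.17% had a lower log2 fold change than MYO6. Without both arrays numbered 4 its log2 fold change was −0.21 (adjusted p 0.704 without pairs and 0.452 with pairs, limma).

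The other probe sets of MYO6 differed from each other. For 203215_s_at the miR-143 arrays read 9.41, 9.28, 9.04 and 10.44, and the mock arrays read 9.62, 9.65, 9.32 and 10.87. Both arrays numbered 4 read far above the other 3 of their group, so the groups overlapped widely. The difference within each number was −0.21, −0.37, −0.28 and −0.43. The log2 fold change was −0.32, with an SE of 0.364 and an adjusted p of 1 without pairs (limma). With pairs the unadjusted p was 5.39e-05 and the adjusted p 0.0241 over the 54613 probe sets tested, and this was the only call among the 45 probe sets. On the lower side 0.326% of all probe sets were called with pairs, and without pairs 0.00183% were called in either direction.

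The call of 203215_s_at rests on the replicate numbers being pairs, which neither the labels nor the study state. Over probe sets the departures of the arrays numbered 1 from their group means correlated at 0.0865. This is under the limit of 0.1 that was set for pairs. The call was lost when both arrays of replicate 2, 3 or 4 were left out (adjusted p 0.107, 0.138 and 0.154, limma with pairs) and held without replicate 1 (0.0412). After cyclic loess, which aligns the arrays a second time, the adjusted p was 0.06. Without pairs the log2 fold change was 0.01 when mock replicate 4 alone was left out and −0.62 when miR-143 replicate 4 alone was left out. The third probe set, 210480_s_at, read 8.74, 8.66, 8.53 and 9.18 in miR-143 cells and 8.62, 8.85, 8.73 and 8.997 in mock cells. It was lower with miR-143 in 2 of 4 numbers, and its log2 fold change of −0.02 had an adjusted p of 0.959 with pairs (limma).

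The 3 genes whose values followed the brightest MYO6 probe set most closely over the 8 arrays were CCNG2 (Pearson r 0.995), CLIC5 (0.987) and CIBAR1 (0.987). CCNG2 encodes an unconventional cyclin and CLIC5 an intracellular chloride channel protein. Their log2 fold changes were −0.19, −0.29 and −0.25. The 3 genes were picked for likeness to MYO6 over both groups, so lower values with miR-143 follow from that choice. The labels do not say what a replicate number stands for, and these values describe likeness over these 8 arrays only.

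FOSL2 encodes Fra-2, a subunit of the AP-1 transcription factor. Its brightest probe set, 225262_at, read 8.16, 8.23, 8.18 and 8.64 in miR-143 cells and 8.46, 8.62, 8.26 and 8.72 in mock cells. Replicate 4 was the highest array in both groups, and the groups overlapped. The means were 8.30 ± 0.23 with miR-143 and 8.52 ± 0.20 with mock (SD, n = 4 each).

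The log2 fold change of FOSL2 was −0.21 (SE 0.129, 95% interval −0.50 to 0.07), a change of −13.8% with an interval of −29.4% to 5.29%. The adjusted p was 1 without pairs and 0.211 with pairs (limma). Without pairs the value was −0.33 when miR-143 replicate 4 was left out and −0.15 when mock replicate 4 was left out. The differences within numbers were −0.30, −0.39, −0.09 and −0.08, all lower with miR-143. Without both arrays numbered 4 the log2 fold change was −0.26 (adjusted p 0.539 without pairs and 0.281 with pairs, limma). A second probe set, 228188_at, read 8.09, 8.17, 8.10 and 8.26 in miR-143 cells and 8.36, 8.27, 8.23 and 8.51 in mock cells. Only the highest miR-143 array, replicate 4, reached into the mock range, and the log2 fold change was −0.19 (SE 0.0718, adjusted p 1 without pairs and 0.21 with pairs, limma).

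These were the 2 FOSL2 probe sets above background. The other 3, at means between 7.16 and 7.73 in both groups, had log2 fold changes of 0.05 (218880_at), −0.02 (218881_s_at) and 0.08 (205409_at). For 205409_at all 4 miR-143 arrays lay above all 4 mock arrays, with 7.24, 7.21, 7.25 and 7.27 against 7.20, 7.10, 7.20 and 7.13. It was the only probe set of the 45 whose groups did not overlap, it lay on the higher side, and its adjusted p with pairs was 0.69 (limma). Averaged over all 5 probe sets the log2 fold change of FOSL2 was −0.06.

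**Figure D3:**
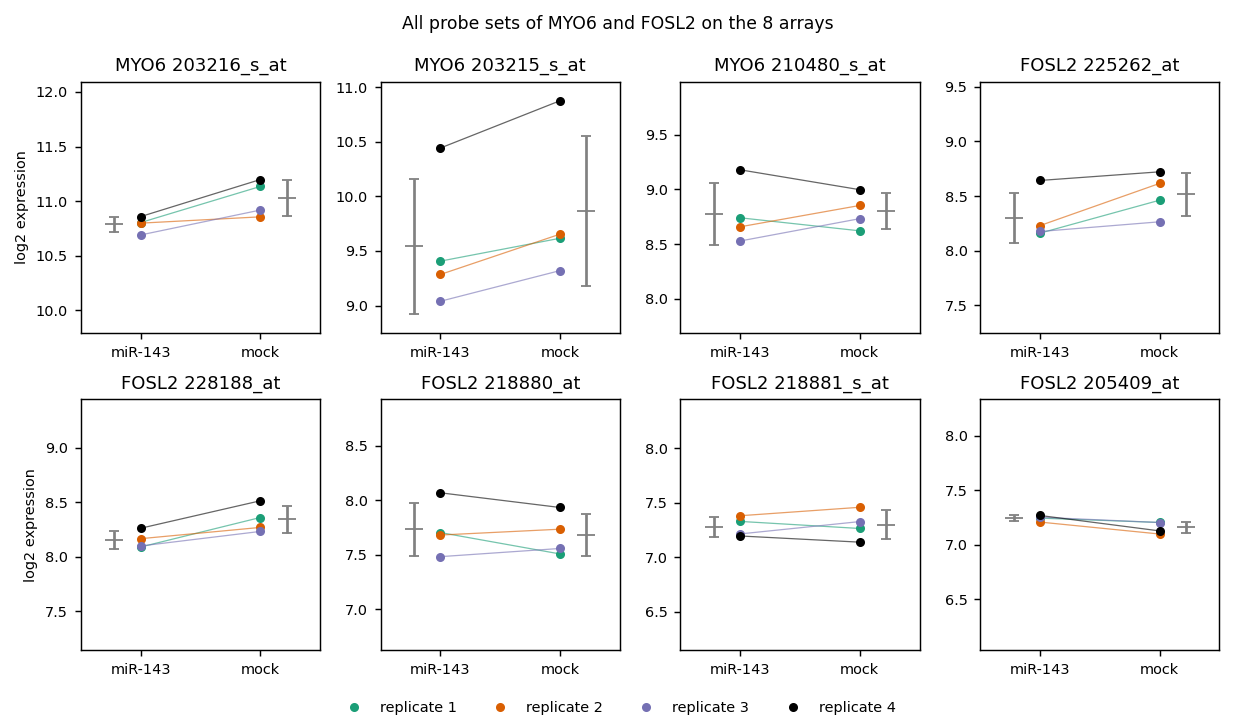
Log2 expression (y axis, the same span in each panel) of the 3 MYO6 and 5 FOSL2 probe sets in miR-143 and mock cells (x axis). Points are single arrays, lines join arrays of the same replicate number, and grey bars are mean ± SD (n = 4). MYO6 203215_s_at is lower with miR-143 in 4 of 4 numbers, with both arrays numbered 4 far above the others.

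The other genes above background showed no decrease beyond the spread of their arrays. CD44, the cell surface receptor for hyaluronan, read 9.20, 9.22, 9.06 and 9.37 in miR-143 cells and 9.36, 9.30, 9.003 and 9.60 in mock cells (212063_at). The miR-143 values lay within the range of the mock values, and 3 of 4 numbers were lower with miR-143. The log2 fold change was −0.10 (SE 0.118), a change of −6.91% with an interval of −22.6% to 11.9%, and the adjusted p was 1 without pairs and 0.616 with pairs (limma). A single mock array moved it, to −0.01 without mock replicate 4 and to −0.21 without mock replicate 3. Of the 13 CD44 probe sets 3 were above background, with log2 fold changes of −0.10, 0.00 (204489_s_at) and −0.06 (209835_x_at). Of these, 204489_s_at (mean 7.997 in mock cells) exceeded the limit of its own array on 4 of 8 arrays. For 209835_x_at (mean 7.93 in mock cells) this held on 2 of 8 arrays, so both lay near the limit. The other 10 CD44 probe sets had log2 fold changes between −0.05 and 0.05.

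ITGA6 encodes integrin alpha-6, which forms laminin receptors with the beta-1 or beta-4 chain. Its values were 10.49, 10.62, 10.52 and 10.45 in miR-143 cells and 10.59, 10.41, 10.35 and 10.54 in mock cells (201656_at). Higher and lower values were spread over both groups, and 2 of 4 numbers were lower with miR-143. The change was 3.34%, with an interval of −7.29% to 15.2% (adjusted p 1 without pairs, limma). The second probe set, 215177_s_at, had a log2 fold change of −0.02.

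FNDC3B, a fibronectin type III domain protein linked to cell migration, had 10.53, 10.53, 10.27 and 10.54 in miR-143 cells and 10.52, 10.33, 10.29 and 10.59 in mock cells (225032_at). The arrays numbered 3 were the lowest of both groups. The change was 2.70%, with an interval of −10.7% to 18.1% (adjusted p 1 without pairs and 0.896 with pairs, limma). The 4 FNDC3B probe sets above background had log2 fold changes between 0.02 and 0.10. The other 2 were 229865_at (−0.20, with means of 7.24 in miR-143 cells and 7.44 in mock cells) and 1569490_at (−0.15, with means of 6.43 and 6.58 in the same order). The first had an unadjusted p of 0.0274 without pairs and an adjusted p of 0.347 with pairs (limma). For FNDC3B the sign of the fold change thus differed between the probe sets above background and those that were not.

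MACC1, which raises the transcription of the receptor kinase MET and is named for colon cancer, read 10.05, 10.32, 10.10 and 9.82 in miR-143 cells and 10.30, 10.01, 10.03 and 9.81 in mock cells (1566764_at). The arrays of each group spread over more than the difference between the groups. The log2 fold change was 0.04 (SE 0.122, 95% interval −0.24 to 0.31, adjusted p 1, limma). The other MACC1 probe sets had −0.04 (1566766_a_at) and −0.03 (232151_at).

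For the 4 genes that were not above background the data give levels rather than a test of a decrease. LIMK1, a kinase that phosphorylates cofilin and so slows the turnover of actin filaments, read 7.40, 7.54, 7.45 and 7.40 in miR-143 cells and 7.49, 7.53, 7.53 and 7.52 in mock cells (204356_at). Replicate 2 of the miR-143 arrays exceeded the whole mock range, and the other 3 were under it. The change was −4.83%, with an interval of −12.5% to 3.50% (adjusted p 1 without pairs and 0.707 with pairs, limma). ASAP3, a GTPase-activating protein for ARF, had means of 7.49 ± 0.11 with miR-143 and 7.51 ± 0.14 with mock (222236_s_at, SD, n = 4 each). Its change was −0.809%, with an interval of −12.9% to 12.9%.

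PTGS2, the inducible cyclooxygenase that starts prostaglandin synthesis, read 6.66, 6.82, 6.79 and 6.79 in miR-143 cells and 6.78, 6.76, 6.78 and 6.93 in mock cells (204748_at). Its second probe set, 1554997_a_at, was lower with miR-143 in 4 of 4 numbers, with a log2 fold change of −0.12 and an adjusted p of 0.542 with pairs (limma), at means of 6.39 in miR-143 cells and 6.50 in mock cells. IGFBP5, a secreted protein that binds insulin-like growth factors, averaged 7.16 ± 0.03 with miR-143 and 7.19 ± 0.02 with mock (203425_s_at, SD, n = 4 each). All 6 IGFBP5 probe sets had log2 fold changes between −0.06 and 0.03. At these levels a decrease was not detectable for either gene.

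Over all 45 probe sets the log2 fold change was negative for 28, beside 55.9% of all probe sets. The median of the 45 was −0.02, beside −0.01 for all probe sets. Of the 45, 17 were above background, beside 27.7% of all probe sets. An unadjusted p under 0.05 with pairs (limma) was reached by 6, where 8.43% of all probe sets reached it in either direction. In 0 of the 45 did all miR-143 arrays lie below all mock arrays, a state found in 1.29% of all probe sets. Probe sets of a gene read RNA of the same gene on the same arrays, so these counts are not independent.

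**Figure D4:**
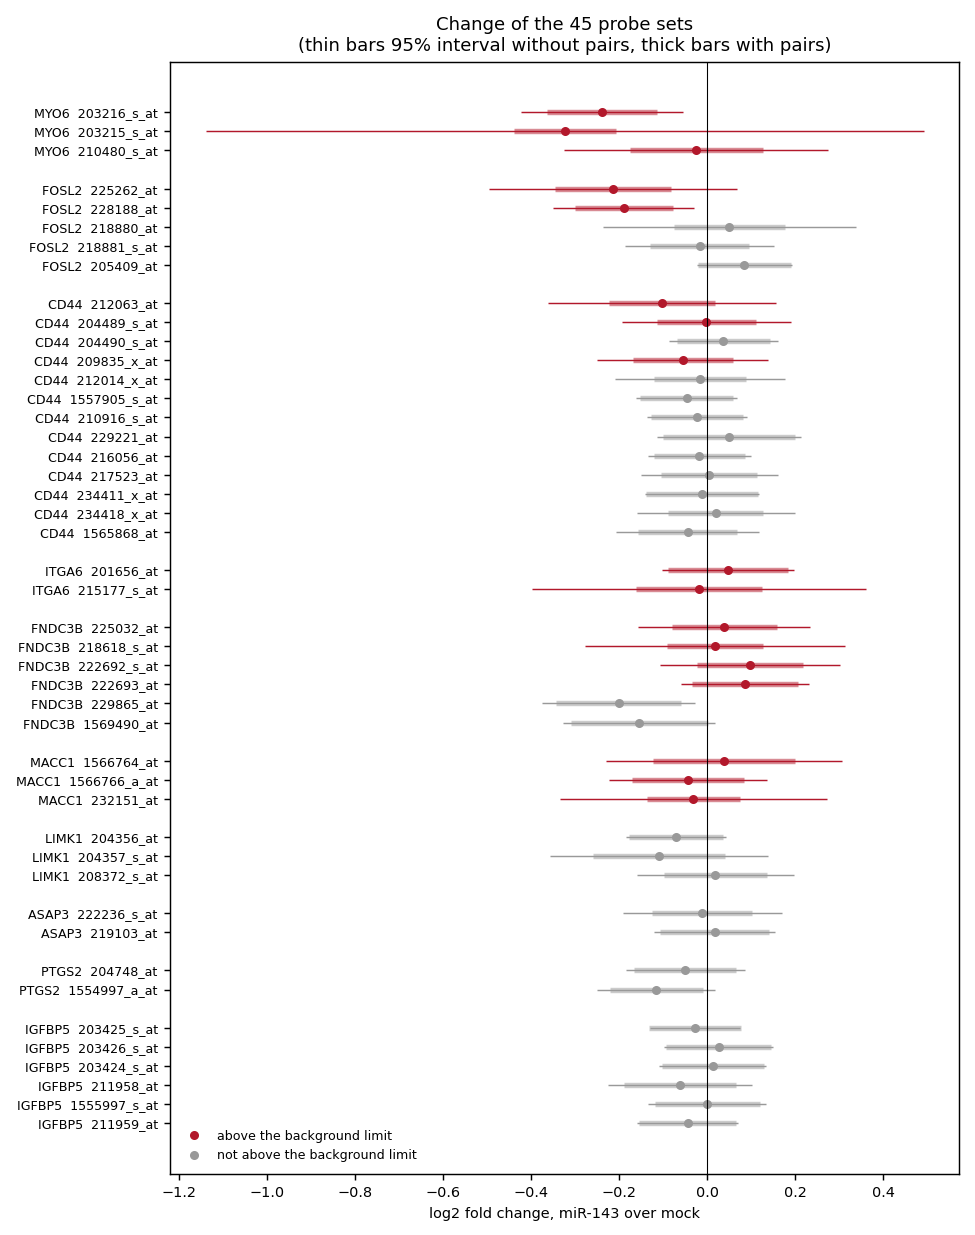
Change on the log2 scale, miR-143 over mock (x axis), for the 45 probe sets (y axis, grouped by gene), in red where above background and grey where not. Thin bars are 95% intervals without pairs and thick bars those with pairs. Of the 45 points 28 lie left of 0, and the interval without pairs leaves out 0 for MYO6 203216_s_at, FOSL2 228188_at and FNDC3B 229865_at.

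Other genes described in the literature as miR-143 targets give a scale for these values. Of 21 such genes analysed here 15 were above background. Without pairs 0 of the 21 were called, with 4 at an unadjusted p under 0.05, a mark that 2.41% of all genes reached. With pairs 3 fell and 0 rose (limma, over all genes), where 0.623% of all genes were called on the lower side. ERBB3, a receptor kinase, averaged 9.20 ± 0.18 with miR-143 and 9.59 ± 0.20 with mock (SD, n = 4 each), a log2 fold change of −0.39 with an adjusted p of 0.0046 with pairs. HK2, the hexokinase that the study followed, averaged 10.44 ± 0.30 with miR-143 and 10.80 ± 0.23 with mock, a log2 fold change of −0.36 with an adjusted p of 0.00787 with pairs. The study chose HK2 after it was seen to fall on these same arrays. Its part in the count of 3 is therefore not independent of these data. The whole list was also chosen with earlier results of these data known, so the same limit holds for the count itself. MRTFB, a coactivator of serum response factor, had a log2 fold change of −0.27 with an adjusted p of 0.0323 with pairs. MAPK7, a MAP kinase also called ERK5, had −0.20 with an adjusted p of 0.186 with pairs. It lay at the background limit, with a mean of 7.94 in mock cells (limit 7.93) and 7.74 in miR-143 cells (limit 7.92). The study reports no change of ERK5 on its arrays. The median log2 fold change of the 21 was −0.05. MYO6 and FOSL2, at −0.24 and −0.21, lay between MRTFB and MAPK7, and the difference between any of these genes was not tested.

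Few genes of the pathways around the 10 passed the test, and few of all genes did (0.79% with pairs and 0% without, limma). In the list of CD44, hyaluronan and ERM proteins, which link membrane receptors to actin, 11 genes were measured, and with pairs 1 fell and 0 rose. It was HMMR, a hyaluronan-binding protein that also acts at the mitotic spindle, with 11.55, 11.60, 11.39 and 11.52 in miR-143 cells and 12.00, 11.74, 11.79 and 11.95 in mock cells. All its miR-143 arrays lay below all mock arrays. The log2 fold change was −0.36, and the adjusted p was 0.0227 with pairs and 0.481 without (limma). SPP1 and SRGN, both ligands of CD44, were not above background and had log2 fold changes of −0.12 and −0.09.

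In each of the other 8 lists 0 genes were called in either direction, with or without pairs (limma). Of all genes 0.79% were called with pairs and 0% without, so few calls would be found in lists of this size. Of their 99 genes, an unadjusted p under 0.05 with pairs was reached by 3 on the lower side and by 8 on the higher side, where 6.92% and 2.64% of all genes reached it on these sides. The values that follow are log2 fold changes. The list around MYO6, of myosin VI adaptors and unconventional myosins, had 17 measured genes with a median log2 fold change of 0.00, and its lowest p-values were those of MYO1A (0.15, not above background), SYNJ1 (0.15) and MYO7A (−0.08, not above background). The AP-1 list around FOSL2 had 10 genes with a median of 0.02. FOS, the founding member of the Fos family, averaged 7.07 with miR-143 and 7.23 with mock, with all miR-143 arrays below all mock arrays at a level that was not above background (adjusted p 0.367 with pairs). JUN had 0.07, and BATF3, which was not above background, had 0.07.

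The integrin alpha-6 and laminin list had 12 genes with a median of −0.01, among them ITGA2, a collagen receptor chain (0.19), the hemidesmosome linker DST (0.16) and the laminin chain LAMA5 (−0.08, not above background). The LIMK and cofilin list had 16 genes, 15 above background, and a median of −0.02. CFL2, a cofilin and so a substrate of LIMK1, had 0.14, TESK1, another cofilin kinase, had −0.08, and the cofilin phosphatase SSH2 had −0.07. The list of ARF GTPases and the ASAP family had 12 genes, all above background although ASAP3 is not, with a median of −0.01. There ACAP2 had 0.16, ASAP2 had 0.18 with an adjusted p of 0.207 with pairs, and ARAP2 had −0.08.

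The 6 partners of FNDC3B and MACC1 had a median of 0.04. GAB1, an adaptor of MET, had 0.15, FNDC3A had 0.07, and HGF, the ligand of MET, had 0.07 at a level that was not above background. The prostaglandin list around PTGS2 had 12 genes, 5 above background. The median was −0.01 over the 12 and −0.11 over the 5, beside −0.04 for all genes above background. At an unadjusted p under 0.05 with pairs (limma) 2 of the 12 were lower and 0 higher. The synthase PTGES (not above background) had 0.13, the exporter ABCC4 −0.15 and the receptor PTGER1 −0.11. Of the 14 genes of the IGF axis around IGFBP5 4 were above background, and the median was 0.00 over the 14 and −0.04 over the 4. IRS1, the adaptor of the insulin and IGF receptors, had −0.14, and IGFBP7 (0.06) and IGFBP6 (−0.08) were not above background.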

How the data were processed

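Total RNA of 8 DLD-1 cultures was hybridized to HG-U133 Plus 2.0 arrays. The values are log2 expression that, per the labels, the authors made with RMA in affy (versions not given in the sources used here), and they were used as deposited. An array gives no depth, so the number of arrays and the signal over background limit the precision. Of 54675 probe sets 41091 had 1 gene symbol (updated by Entrez identifier or older symbol), 1801 several, 11721 none and 62 were controls. A gene was its brightest probe set, and 10521 genes had more than 1. A MACC1 probe set shared with another gene was left out.

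Groups were compared with limma 3.58.1 in R 4.3.3 (lmFit and eBayes, two-sided, threshold 0.05 after Benjamini and Hochberg) over all genes and over all probe sets other than controls. Single genes were also tested by exact permutation. Both tests were tested on simulated data. The simulated pairs shared the same part of the spread at every number, unlike these arrays, so they do not test the pairing used here. Python 3.11.15 with pandas 2.3.3 and numpy 2.4.6 was used for tables. P-values measure the spread between these arrays. The genes and lists were chosen with earlier results of these data known. Named are all 10 genes and their probe sets, in each list the (up to) 3 genes with the smallest p (HK2 was added after its values were seen), and the 3 genes most like the gene of lowest p.

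The labels do not say what a replicate number stands for, so pairs come from the data alone. The departures of arrays with the same number from their group's mean correlated over genes at 0.109, 0.166, 0.576 and 0.808 for numbers 1 to 4, and over probe sets at 0.0865, 0.124, 0.546 and 0.762. The limit of 0.1 for every number was met over genes and not over probe sets. Numbers 1 and 2 of the miR-143 arrays correlated more with another mock number over genes (0.25 with mock 3 and 0.538 with mock 1), and only numbers 3 and 4 correlated best with their own. Every value with pairs rests on this pairing. Alternatives were cyclic loess, array weights, the mean of all probe sets, filters on dim and on low-variance genes, other background limits, pairs, and each array or number left out.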

Additional observations from a re-analysis of the deposited data

Results flagged for a closer look

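In each of the 45 probe sets the 4 arrays of each group were searched for a single array far from the other 3 by Dixon's test at 95%, which gave 5 such arrays among 90 groups. Chance gives about 1 in 20 groups. Of the 5 arrays 3 were numbered 4. FOSL2 225262_at read 8.6434 in miR-143 replicate 4, where the other miR-143 arrays lay between 8.1609 and 8.2303. FNDC3B 225032_at read 10.2745 in miR-143 replicate 3, with the others between 10.5280 and 10.5388. FNDC3B 222693_at read 7.9771 in mock replicate 3, with the others between 8.0714 and 8.0849. CD44 204490_s_at read 7.9705 in mock replicate 4, with the others between 7.8688 and 7.8792. PTGS2 204748_at read 6.9340 in mock replicate 4, with the others between 6.7566 and 6.7805.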

How the results depend on the processing

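Of the 10 genes 0 were called under any alternative. MYO6 and FOSL2 kept a negative log2 fold change wherever they were tested (MYO6 −0.30 to −0.18 and FOSL2 −0.33 to −0.15 with arrays left out), and FOSL2 had −0.06 over the mean of all probe sets. With the replicate block, 123 genes were called lower and 33 higher of all genes, and 1 of the 45 probe sets was called, MYO6 203215_s_at at −0.32. That call was lost after cyclic loess with pairs (−0.28, 0 probe sets called), and with a pair left out 0 to 1 probe sets were called, at −0.36 to −0.29. With single arrays left out and no pairs it was −0.6226 to 0.0132, the last without mock replicate 4. The cause was not tested. All genes called lower and higher were 36 and 20 with array weights, 31 and 21 after cyclic loess, 0 to 30 and 0 to 13 with arrays left out, 78 and 51 after cyclic loess with pairs, 35 and 3 over the mean of all probe sets with pairs, and 33 to 68 and 9 to 16 with a pair left out. Without dim genes 3 genes were negative and without low-variance genes 1 was (median −0.21), since fewer of the 10 remained. With arrays left out 6 to 10 were negative. Signs turned only for genes near 0. Over the mean of all probe sets, with and without pairs, FNDC3B had −0.0195, MACC1 −0.0121 and ASAP3 0.0025, and ASAP3 had 0.0001 with array weights. With arrays left out the ranges were −0.0718 to 0.0376 for ASAP3, −0.0169 to 0.1029 for FNDC3B, −0.0074 to 0.0964 for ITGA6 and −0.0511 to 0.1337 for MACC1, and with a pair left out −0.0488 to 0.0219 for ASAP3 and −0.0169 to 0.0682 for FNDC3B. All probe sets were above background in 3 of the 10 genes, and with the second highest tissue-restricted value as the limit 5 genes were above, without FOSL2. Leaving out MBP, pairs left out over probe sets and settings that combine pairs with another change were chosen after seeing the data.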
